A study of Mus musculus with 20 samples.

Results

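The genes described here have symbols given to proteins of the mitochondrial ribosome and of the translocases that carry proteins into mitochondria. They were chosen by symbol, as Mrpl and Mrps genes for the ribosome and Timm and Tomm genes for import, and by level, as at least 1 CPM (estimated counts scaled to a common library total) in 5 or more of 20 libraries of mouse muscle. Of 107 matching names, 5 marked as pseudogenes were left out and 1, Tomm6os, fell short of the level. The other 101 were tested among 14361 genes that met the same level, of 21844 genes in the table. They comprise 49 Mrpl genes, 29 Mrps genes, 14 Timm genes and 9 Tomm genes. Mrpl genes are called large subunit genes here and Mrps genes small subunit genes. These names follow the symbol alone, and the place of each protein was not checked. Tomm6os, whose symbol marks a transcript from the opposite strand of Tomm6, reached 1 CPM in 4 libraries, and its next value was 0.897 CPM. The nearest gene inside the rule, Mrpl23, was at 2.65 to 4.75 CPM over all 20 libraries, so the level set no close limit among protein-coding members.

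Mitochondria make a small set of respiratory chain subunits on their own ribosomes, whose RNAs come from mitochondrial DNA and whose proteins are all encoded in the nucleus. Those ribosomal proteins, like nearly all mitochondrial proteins, are made in the cytosol, pass the TOM complex in the outer membrane and then enter through the TIM23 complex (proteins with a cleavable presequence) or the TIM22 complex (carriers of the inner membrane), with small TIM chaperones escorting hydrophobic proteins between the membranes. In skeletal muscle, both machineries are known to be adjusted when endurance training increases mitochondrial content.

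All mice had the genotype Cre+:iMSBmal1 fl/fl, a floxed gene for the clock transcription factor BMAL1 with an inducible Cre recombinase specific to muscle, so the Cre driver and the floxed alleles were shared by every group. The groups were vehicle-treated sedentary, knockout sedentary, vehicle-treated trained and knockout trained mice, with 5 libraries each, and training was 6 weeks of daily treadmill running. The labels conflict on the muscle: gastrocnemius in the design text and the source field, tibialis anterior in the tissue field. Collection was 47 hours after the last bout per the series design and 48 hours per the sample labels, and ages and the inducing agent are not given in the sources used here. The comparisons ask what differs between the knockout and vehicle labels in sedentary and in trained muscle. They also ask what training changes under each label, and whether those 2 training responses differ. Genotype below means these labels. As the Cre is inducible, effects of the inducing treatment and of BMAL1 loss cannot be told apart here.

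Library totals lay between 10610333 and 19153527 estimated counts. Libraries 1 and 4 of the knockout trained group, and libraries 3 and 5 of that group, had squared differences that grew little or not at all with counts. Noise ratios between high and low counts were 1.28 and 0.857, against at least 2.31 for the other 188 library pairs. At low and high counts the differences were 1.86 and 2.38 times the sampling noise for libraries 1 and 4. For libraries 3 and 5 they were 2.05 and 1.76 times that noise. The lowest value among other pairs at high counts was 6.38. Each of these 2 pairs was therefore counted as 1 sample and the group has n = 3. Counts of a pair were summed for the tests. The CPM levels given for these summed libraries are means over the 2 libraries. No label says that the remaining libraries came from separate animals, so the p-values measure the spread between these samples, which may be technical. Vehicle trained library 2 stood apart from its group. It had 556 CPM of Ppargc1a, the coactivator PGC-1α, against 51.9 to 75.1 CPM in the other 4, and 9663 CPM of Myh4, the fastest myosin heavy chain, against 18010 to 25940 CPM. Ppargc1a was singled out after its values were seen, and the main results are given with and without this library. The targeted gene, listed as Arntl, was at 6.79 ± 0.89 CPM in vehicle and 13.2 ± 3.28 CPM in knockout sedentary muscle (SD, n = 5 and 5; two-sided exact permutation p = 0.00794), and at 31.6 ± 56.3 CPM and 10.9 ± 4.45 CPM in trained muscle (SD, n = 5 and 3; exact permutation p = 1, with 132 CPM in vehicle trained library 2). Gene totals do not show whether the floxed exons were lost, so the genotype labels were not checked by this level. All 8 muscle fibre markers were detected in every sample, with a summed level of 46240 to 81740 CPM.

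Per length of the longest coding transcript, the members spanned a wide range of abundance. The highest mean levels were 223 CPM per kb for Timm8b, a small TIM chaperone, 189 for Mrps21 and 173 for Mrpl33, and the lowest were 3.62 for Mrps35, 4.01 for Mrpl19 and 4.74 for Mrpl48. Mrpl33 and Mrps21 share 30.3% and 13.7% of their 50-base stretches with other genes, so their counts are uncertain. Spread over the 18 samples differed between members and was not set beside that of other genes. The SD of log2(CPM + 1) was largest for Tomm7 (0.53), Timm8b (0.46) and Mrps21 (0.46), and smallest for Mrpl4, Timm17a and Mrps10 (0.12 each). Over 5050 pairs of members the median Pearson correlation across the 18 samples was 0.297, and 0.243 after group means were removed. These samples share library scaling and composition, so the value is a description.

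The mean log2(CPM + 1) over the 101 genes was 5.06 ± 0.10 in vehicle sedentary, 5.13 ± 0.04 in knockout sedentary, 5.12 ± 0.14 in vehicle trained (SD, n = 5 each) and 5.30 ± 0.15 in knockout trained muscle (SD, n = 3). Knockout trained sample 2 (5.43) and the summed libraries 3 and 5 (5.33) were above every other sample, while the summed libraries 1 and 4 (5.13) lay within the range of the sedentary groups. Vehicle trained samples ran from 4.92 in library 3 to 5.32 in library 1. In summed CPM, the large subunit went from 1790 ± 151 in vehicle sedentary to 2239 ± 319 in knockout trained muscle, the small subunit from 955 ± 67.7 to 1203 ± 162, and the import genes from 1081 ± 87.5 to 1234 ± 156 (SD, n = 5 and 3). In bulk muscle, a change in the number of cells of a type and a change in RNA per cell cannot be told apart.

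**Figure D1:**
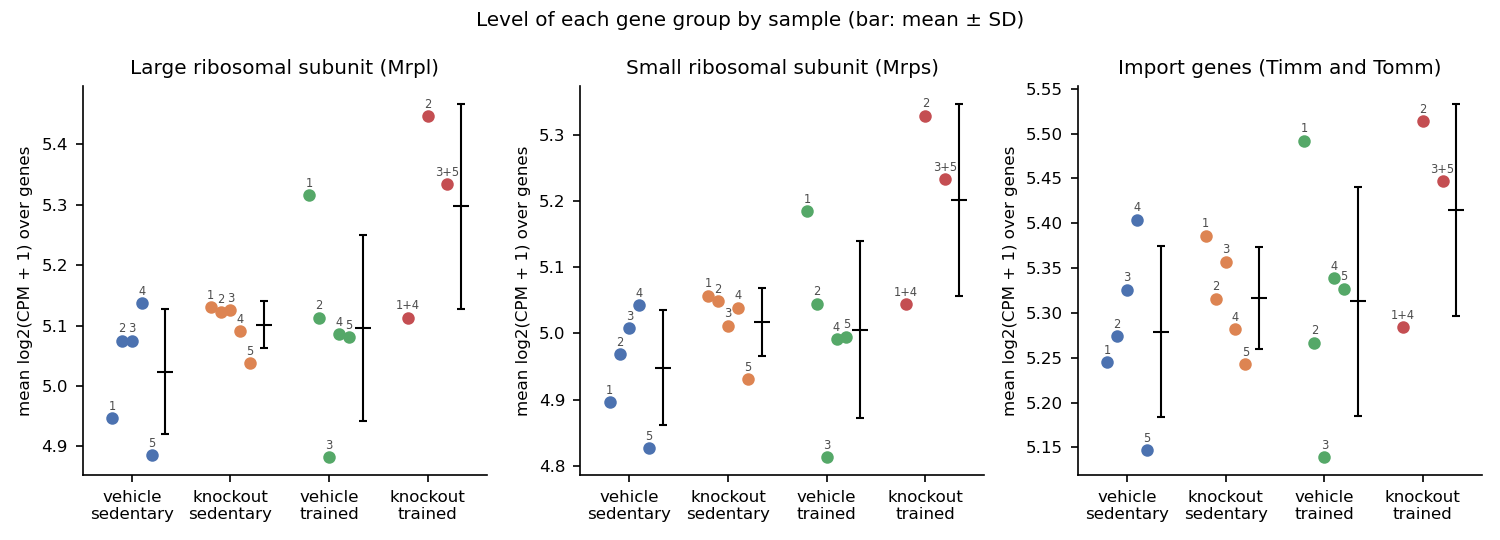
Mean log2(CPM + 1) over the 49 large subunit genes, the 29 small subunit genes and the 23 import genes in each of 18 samples, with numbers marking libraries and bars giving the mean ± SD of each group; the axes do not start at 0. In all 3 panels knockout trained samples 2 and 3+5 lie above sample 1+4, which lies among the sedentary samples.

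Sedentary muscle showed little difference between genotypes in these genes. None of the 101 members passed the threshold (an adjusted p under 0.05 in edgeR's quasi-likelihood test, with Benjamini-Hochberg adjustment over all tested genes), against 2.33% of all tested genes. DESeq2 also called none. At an unadjusted p under 0.05, 1 member, Tomm34, was higher and none lower, beside 4.64% and 5.18% of all tested genes. The median log2 change was 0.023, with 60 of 101 members above 0, beside a median of 0.012 and 52.3% above 0 over all tested genes. Individual changes ran from -0.23 for Mrpl23 to 0.23 for Mrps34. Mrpl23 shares 66.7% of its 50-base stretches with a gene marked as its pseudogene, so its counts are uncertain. Tomm34, which encodes a cytosolic co-chaperone of import precursors, was at 14.9 to 17.9 CPM in the 5 vehicle samples and 18.6 to 22.0 CPM in the 5 knockout samples. Its groups did not overlap, but the log2 change of 0.21 (SE 0.10) had an adjusted p of 0.465. In all, 4 members had no overlap with higher values in knockout muscle, against 5.63% of all tested genes, and none had no overlap with lower values, against 3.77%. The others were Mrps23, at 62.1 to 64.2 CPM in vehicle and 72.7 to 78.0 CPM in knockout muscle, Timm22 and Mrpl10. Timm22 was at 27.8 to 31.3 and 31.7 to 38.0 CPM, and Mrpl10 at 28.3 to 31.8 and 32.1 to 36.0 CPM.

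Trained muscle was the setting in which members passed the threshold between genotypes. Mrps34, Mrpl37, Mrpl16 and Mrpl18 rose in knockout trained relative to vehicle trained muscle, by 0.44 to 0.65 on the log2 scale, and no member fell. These 4 calls among 101 members stand beside 1.99% of all tested genes called higher and 1.30% called lower, a background of the same order. At an unadjusted p under 0.05, 26 members were higher and none lower, beside 8.35% of all tested genes higher and 8.83% lower. The trained groups did not overlap for 8 members with higher values in knockout muscle and for none with lower values, against 3.98% of all tested genes in each direction. These include Mrpl28, whose highest vehicle and lowest knockout values were both 39.3 CPM after rounding. The median log2 change of the members was 0.22, with 91 of 101 above 0, while over all tested genes the median was -0.026 and 46.8% lay above 0.

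Mrps34 (ENSMUSG00000038880) encodes a small subunit protein found in mitochondrial but not bacterial ribosomes, and loss of its human counterpart causes a form of Leigh syndrome. It was at 64.4, 52.9, 42.9, 50.1 and 48.4 CPM in vehicle trained samples 1 to 5 and at 72.6, 82.5 and 80.0 CPM in the knockout trained samples. The sedentary groups were at 42.6 to 53.0 CPM (vehicle) and 52.6 to 66.6 CPM (knockout). All 3 knockout trained samples lay above all other 15 samples. The log2 change in trained muscle was 0.65 (SE 0.12; edgeR adjusted p = 0.00626). Mrps34 overlaps Nme3 on the same strand and Mapk8ip3 on the other, which changed by -0.02 and -0.12 with adjusted p of 0.984 and 0.822; since the strandedness of counting is not given in the sources used here, its counts are uncertain.

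Mrpl37 (ENSMUSG00000028622), a large subunit protein, was at 49.3, 42.0, 44.6, 46.6 and 46.0 CPM in the vehicle trained samples and at 62.4, 58.2 and 60.1 CPM in the knockout trained samples. The trained groups did not overlap, and the vehicle trained values were mostly below the 46.5 to 53.2 CPM of vehicle sedentary muscle. The log2 change between trained groups was 0.44 (SE 0.10; edgeR adjusted p = 0.0164). Mrpl16 (ENSMUSG00000024683), whose bacterial relative helps to shape the peptidyl transferase centre, was at 41.6, 31.4, 32.9, 31.7 and 33.6 CPM against 40.8, 49.9 and 46.9 CPM. Vehicle trained library 1 overlapped the knockout samples, and the log2 change was 0.47 (SE 0.12; edgeR adjusted p = 0.0326). Mrpl18 (ENSMUSG00000057388) belongs to the family that binds 5S rRNA in bacterial ribosomes. It was at 86.7, 43.6, 57.3, 65.7 and 67.6 CPM against 83.2, 99.4 and 96.8 CPM, again with library 1 of the vehicle group inside the knockout range, and its log2 change was 0.59 (SE 0.15; edgeR adjusted p = 0.0336). It overlaps Tcp1 on the other strand, which changed by -0.15 (adjusted p = 0.636).

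**Figure D2:**
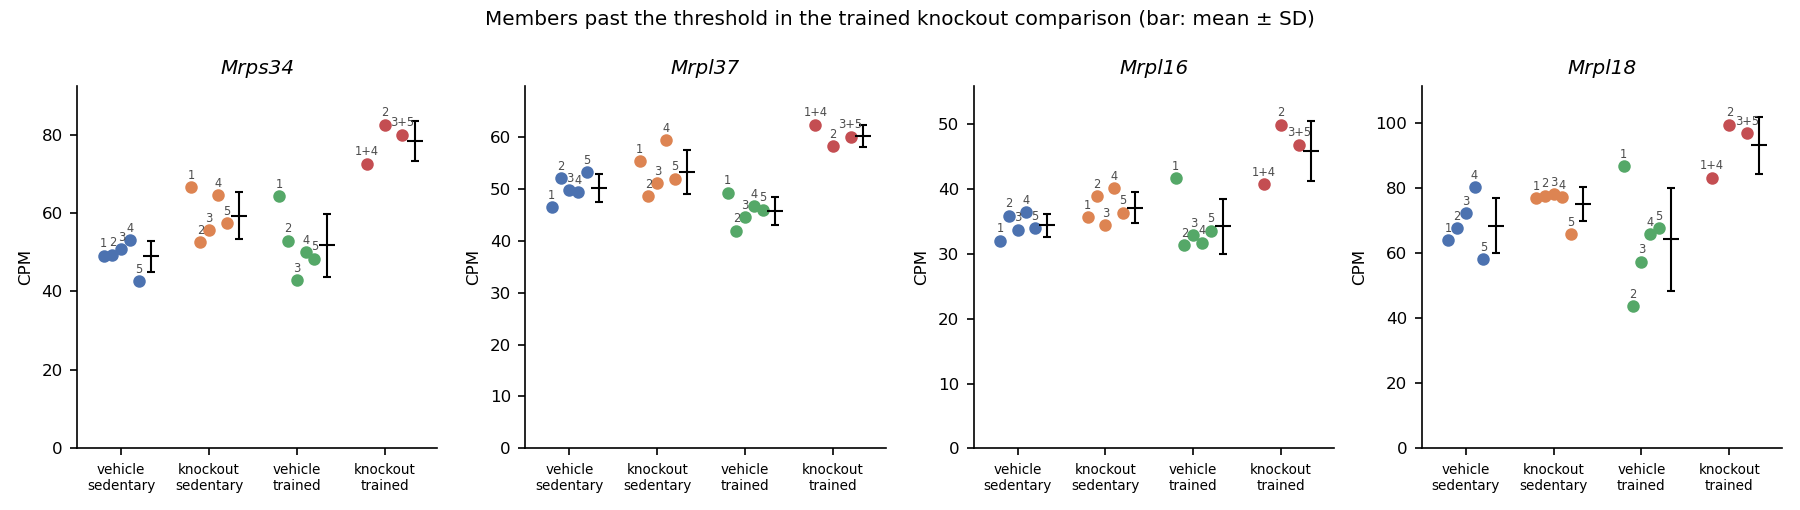
CPM of Mrps34, Mrpl37, Mrpl16 and Mrpl18 in each of 18 samples by group, with numbers marking libraries and bars giving the mean ± SD. Knockout trained samples are the highest of all 18 for Mrps34 and lie above every vehicle sample for Mrpl37, where knockout sedentary library 4 reaches into their range, while vehicle trained library 1 reaches into their range for Mrpl16 and Mrpl18.

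The promoters of the called genes were read to show what letters of factors known for mitochondrial genes they hold. RefSeq windows (GRCm38.p6, 250 bases before to 50 after the start) were matched by symbol for 89 members, with 97 windows; Mrps34 has no entry. Both strands were searched for CGGAAG (the core of ETS family sites, which GABPA binds), GCGCNTGCG (NRF1), AAGATGGCG (YY1), TCAAGGTCA (estrogen-related receptors) and CACGTG (the E-box that BMAL1 and CLOCK bind). ETS letters were in 51.55% of member windows, 29.02% of windows of tested genes and 16.85% of all 32851 windows. NRF1 letters were in 23.71%, 12.59% and 6.31%, and YY1 letters in 9.28%, 2.88% and 1.40%. E-box letters were in 11.34%, 9.72% and 7.15%, so that members held them at nearly the share of tested genes, and estrogen-related receptor letters in 1.03%, 0.26% and 0.42%. A match is a string of letters, not a shown site. All 250 upstream bases of Mrpl18 lie in annotated exons of Mrpl18 or Tcp1. The E-box letters of Mrpl37 lie outside its longest upstream stretch without annotated exons, from 121 to 3 bases before the start. The 5 stretches of 30 bases below, from the 3 called genes with a window, show the matches in capitals on the gene's strand (CTTCCG is the ETS core read from the other strand), and the last line gives the upstream stretch of Mrpl16 outside annotated exons with the same match.
Mrpl37, YY1 letters from base 27 after the start, chr4:107066821-107066850 (-): tgcacgggcaAAGATGGCGgcgtccaggta
Mrpl37, E-box letters from 162 bases before the start, chr4:107067011-107067040 (-): agcaagtttcttCACGTGtggcacttcaga
Mrpl16, ETS letters from 83 bases before the start, chr19:11770320-11770349 (+): aagtttcctctaCTTCCGtcaggactctat
Mrpl18, ETS letters from 239 bases before the start, chr17:12916312-12916341 (-): actgaaaacgcCGGAAGtagggggctgcgg
Mrpl18, ETS letters from 171 bases before the start, chr17:12916245-12916274 (-): gaaagtggaaaaCGGAAGtcaggctcttgg
Mrpl16, upstream stretch, chr19:11770165-11770390 (+): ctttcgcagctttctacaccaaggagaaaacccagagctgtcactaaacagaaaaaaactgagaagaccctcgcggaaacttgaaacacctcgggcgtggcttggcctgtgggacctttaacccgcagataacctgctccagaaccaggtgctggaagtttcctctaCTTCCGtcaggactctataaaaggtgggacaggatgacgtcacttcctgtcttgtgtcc

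Without vehicle trained library 2, 19 members rose in knockout trained muscle and none fell, beside 5.01% of all tested genes called higher and 3.65% called lower in the same fit. They comprised 11 large subunit genes, 6 small subunit genes and 2 import genes, and the 4 genes above were among them. The median change of the members was then 0.26, with 97 of 101 above 0, beside 50.7% of all tested genes. Mrpl28 had the highest log2 change with all samples, 0.68 (SE 0.19; edgeR adjusted p = 0.0591), and 0.53 (adjusted p = 0.00919) without that library. Its levels were 39.3, 14.6, 28.9, 30.1 and 32.3 CPM in the vehicle trained samples and 39.3, 48.6 and 45.9 CPM in the knockout trained samples, so library 2 was the lowest of all 18 samples. The reverse held for Mrps18b, 1 of 3 paralogues of the bacterial S18 protein, at 61.4 CPM in library 2 against 25.3 to 27.6 CPM in the other vehicle trained samples. Its change was -0.003 (adjusted p = 0.997) with and 0.38 (adjusted p = 0.0143) without that library, whereas its paralogues Mrps18a and Mrps18c were at 0.38 and 0.26 without it and passed neither way. Mrps18b and Mrps18c share 30.9% and 17.6% of their 50-base stretches with other genes, so their counts are uncertain. Mrps23, a small subunit gene chosen after its values were seen, had the smallest adjusted p of all members without library 2 (change 0.59, edgeR adjusted p = 0.00072). With all samples, its change was 0.46 (adjusted p = 0.0685). Its sedentary groups did not overlap.

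Calls also depended on the knockout trained samples, of which there are only 3. Leaving out the summed libraries 3 and 5 left 0 calls (1.23% of all tested genes), leaving out sample 2 left 2 (2.08%), and leaving out the summed libraries 1 and 4 gave 13 (2.67%). Mrps34 and Mrpl37 passed in every such fit except the one without libraries 3 and 5. Single vehicle samples mattered too. Mrpl16 and Mrpl18 did not pass without vehicle trained library 4 or library 5, and Mrpl18 did not pass without vehicle trained library 3. When the 2 trained groups alone were fitted, no member passed, beside 0.139% of all tested genes, and with DESeq2 12 did, beside 6.32%.

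**Figure D3:**
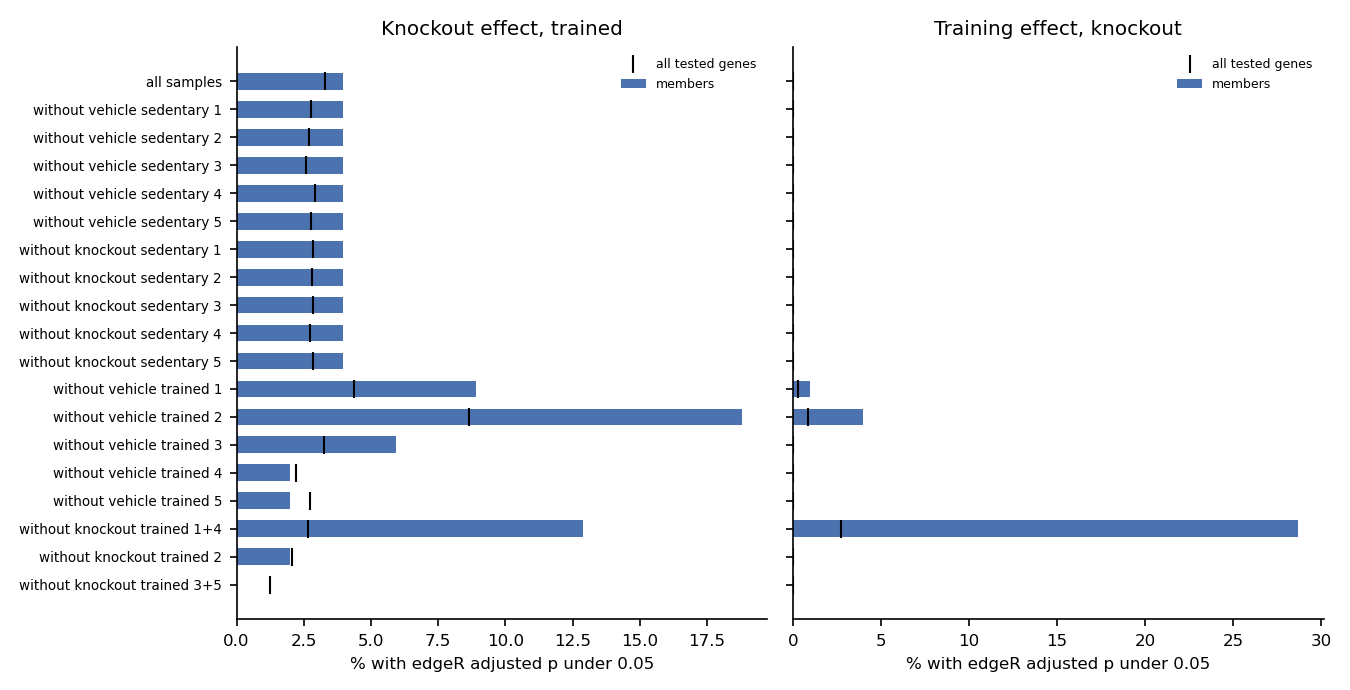
Share of the 101 members (bars) and of all tested genes (ticks) with an edgeR adjusted p under 0.05, with all samples and with each sample left out, for knockout against vehicle in trained muscle (left) and trained against sedentary in knockout muscle (right). The left panel runs from 0 to 19 members, and the right panel reaches 29 members without knockout trained sample 1+4; the axes differ in scale.

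By role, the ribosomal genes had the larger changes between trained groups. The large subunit had a median log2 change of 0.25, with 46 of 49 genes above 0 and 3 called, and the small subunit 0.22, with 27 of 29 above 0 and 1 called. The 23 import genes had a median of 0.15, with 18 above 0 and none called with edgeR or DESeq2, 4 of them with an unadjusted p under 0.05. Over all tested genes, 46.8% were above 0 and 1.99% were called higher with edgeR. At an unadjusted p under 0.05, 8.35% were higher. The counts of calls by role are too small to be set apart from those shares. The difference between ribosomal and import genes was not tested.

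Among the TOM genes, the median change between trained groups was 0.13, with 7 of 9 above 0, beside 46.8% of all tested genes. Tomm34 is counted among these 9 genes, although it encodes a cytosolic co-chaperone. Tomm34 was at 15.3 to 18.1 CPM in the 5 vehicle trained samples and 21.3, 20.2 and 18.9 CPM in the knockout trained samples. Its groups did not overlap, with a change of 0.32 (SE 0.11; edgeR adjusted p = 0.133), and it passed without vehicle trained library 2 (change 0.37, adjusted p = 0.024). The channel Tomm40 was at 19.4 to 28.5 CPM against 23.5 to 25.5 CPM, and its paralogue Tomm40l had 9.75 CPM in vehicle trained library 2 against 31.1 to 43.9 CPM in the other 4. The presequence receptors Tomm20 and Tomm22 changed by -0.01 and 0.25, the carrier receptor Tomm70a by 0.07, and the small subunits Tomm5, Tomm6 and Tomm7 by 0.25, 0.06 and -0.002, all with adjusted p over the threshold. Tomm6 shares 86.7% of its 50-base stretches with an overlapping gene, so its counts are uncertain.

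All 6 TIM23 genes were above 0 between trained groups (median 0.16), beside 46.8% of all tested genes, and none passed. Timm50, the receptor that takes presequences from TOM, was at 18.5 to 24.3 CPM in vehicle trained and 26.2, 23.7 and 30.9 CPM in knockout trained muscle (change 0.33, SE 0.13; edgeR adjusted p = 0.185). Timm44, which tethers the import motor, was at 37.3 to 47.8 CPM against 64.7, 43.6 and 47.4 CPM (0.29, SE 0.12; adjusted p = 0.229), so that a single sample lay apart. The channel-forming paralogues Timm17a and Timm17b changed by 0.16 and 0.15, Timm21 by 0.15 and Timm23 by 0.17; Timm23 shares 90.9% of its 50-base stretches with other genes, among them pseudogenes. Of the TIM22 genes, the channel Timm22 was at 32.3, 8.85, 24.8, 34.1 and 27.8 CPM against 33.9, 37.1 and 38.2 CPM. Its change was 0.57 (SE 0.24; adjusted p = 0.22) with all samples and 0.37 (adjusted p = 0.0226) without library 2, whose value was the lowest. The sedentary groups of Timm22 did not overlap. Timm29 and Timm10b changed by 0.02 and -0.15 between trained groups. Among the small TIM chaperones, Timm13 was at 0.23, Timm8b and Timm8a1 at 0.07 each, Timm9 at -0.23 and Timm10 at -0.31, none of them past the threshold. Timm8a1 shares 41.0% of its 50-base stretches with another gene, so its counts are uncertain. Timm10 had 59.3 CPM in vehicle trained library 2 against 19.0 to 28.6 CPM in the other 4, and its change was 0.14 without that library.

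Training in vehicle muscle moved no member past the threshold, and no tested gene passed (0% of 14361). DESeq2 called no member and edgeR had 18 higher and 3 lower at an unadjusted p under 0.05, beside 10.5% and 4.75% of all tested genes. The median change was 0.11, with 65 of 101 above 0, beside 53.7% of all tested genes, and 0.06 without library 2. Tomm7, a small TOM subunit that also takes part in PINK1 stabilisation, had the highest value. It was at 27.3, 27.2, 31.0, 42.8 and 23.0 CPM in vehicle sedentary samples and at 77.2, 82.4, 30.5, 42.1 and 46.2 CPM in vehicle trained samples. Libraries 1 and 2 were high and the groups overlapped (change 0.94, SE 0.26; edgeR adjusted p = 0.272), and the change was 0.73 without library 2. Mrpl41 (0.71) and Timm8b (0.66) followed, and were at 0.23 and 0.61 without that library. The lowest changes were Timm21 (-0.29), Tomm40l (-0.28) and Timm44 (-0.26), which were at -0.17, -0.05 and -0.22 without it. No member was higher without overlap of the groups, against 0.251% of all tested genes, and 3 were lower, against 2.73%.

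In knockout muscle, training again gave no call with edgeR among members or among all tested genes (0%), although the members stood higher in most cases. The median log2 change was 0.32, with 93 of 101 above 0, beside -0.017 and 47.4% over all tested genes. At an unadjusted p under 0.05, 54 members were higher and none lower, beside 7.10% of all tested genes higher and 2.59% lower. DESeq2 called 11 members, all higher, beside 1.38% of all tested genes called. This comparison shares the knockout trained samples with the comparison of genotypes in trained muscle, so the values of both are not independent. Without the summed libraries 1 and 4, which leaves 2 knockout trained samples, edgeR called 29 members, beside 2.76% of all tested genes. Without vehicle trained library 2, it called 4, namely Mrpl28 (0.67, adjusted p = 0.023), Mrps34 (0.56, 0.0341), Mrpl34 (0.63, 0.041) and Tomm6 (0.52, 0.0499), beside 0.696% of all tested genes called higher.

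Mrpl34, a short large subunit gene, was at 19.5 to 23.8 CPM in the 5 knockout sedentary samples and at 24.5, 33.4 and 32.9 CPM in the knockout trained samples. The groups did not overlap, and the change was 0.63 (SE 0.15; edgeR adjusted p = 0.124). The highest changes belonged to Mrps21 (0.84), Mrps24 (0.83) and Mrpl14 (0.82). Mrps21 was at 82.4, 87.7, 92.2, 68.9 and 52.6 CPM in knockout sedentary and at 74.1, 165 and 130 CPM in knockout trained samples, so the summed libraries 1 and 4 lay within the sedentary range (adjusted p = 0.246). The lowest were Mrpl47 (-0.15), the receptor Tomm70a (-0.13) and Timm9 (-0.05). In all, 10 members were higher without overlap, against 2.10% of all tested genes, and 1, Tomm70a, was lower, against 9.77%. By role, the medians were 0.34 for the large subunit, 0.35 for the small subunit, 0.29 for TOM, 0.23 for TIM23, 0.22 for TIM22 and 0.26 for the small TIM chaperones.

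The interaction of knockout and training passed for no member and for no tested gene (0%) with edgeR, and for no member with DESeq2. At an unadjusted p under 0.05, 15 members were above 0 and none below, beside 3.85% and 3.65% of all tested genes. The median interaction was 0.23, with 86 of 101 above 0, beside -0.024 and 47.2% over all tested genes. Mrpl28 had the highest value (0.85, SE 0.25; unadjusted p = 0.00353, adjusted p = 0.605), followed by Mrpl34 (0.59) and Mrpl18 (0.51), and Mrpl41 (-0.35), Timm10 (-0.32) and Mrpl1 (-0.19) had the lowest. Without vehicle trained library 2 the signs of Mrpl41 (0.13) and Timm10 (0.12) turned, and Mrpl1 was at -0.22, Mrpl28 at 0.70, Mrpl34 at 0.61 and Mrpl18 at 0.42. A difference in the training response between genotypes was therefore not shown for any single member.

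**Figure D4:**
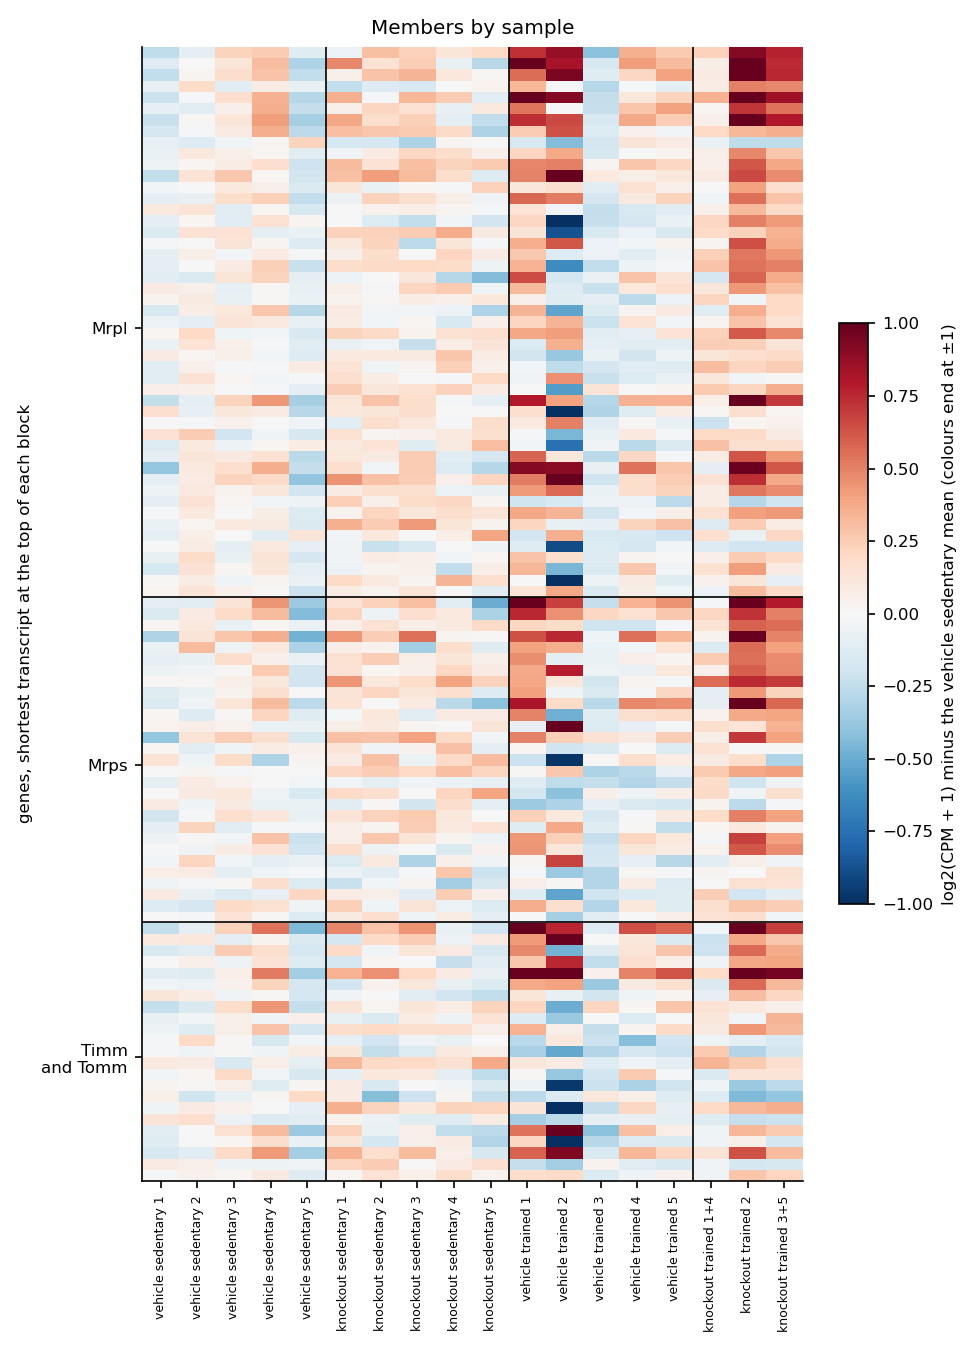
Difference of log2(CPM + 1) from the vehicle sedentary mean for the 101 genes (rows, in blocks for Mrpl, Mrps and Timm with Tomm, shortest transcript at the top of each block) in 18 samples (columns); colours end at 1 and -1. The shortest genes are reddest in vehicle trained libraries 1 and 2 and knockout trained samples 2 and 3+5, and vehicle trained library 2 has single genes far below and above its group.

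Members with short transcripts had higher median changes with training than longer ones, and members over 1000 bases were also above 0 at the median. Over the 101 members, Spearman's rho between transcript length and log2 change was -0.445 for training in vehicle muscle, -0.512 for training in knockout muscle, -0.134 for knockout in trained muscle (-0.335 without library 2) and -0.130 for knockout in sedentary muscle. Over 14333 genes with a length it was -0.208, -0.509, -0.186 and 0.030. These are correlations across genes, which are not independent replicates and share libraries. For training in knockout muscle, the 28 members of up to 1000 bases had a median of 0.50, the 37 of over 1000 and up to 2000 bases 0.31 and the 36 longer ones 0.22, beside 0.42, 0.13 and -0.075 for all tested genes of those lengths. For knockout in trained muscle the members' medians were 0.19, 0.26 and 0.15, beside 0.064, 0.056 and -0.059. For training in vehicle muscle they were 0.32, 0.014 and 0.040, beside 0.35, 0.068 and -0.014. Short genes as a whole were higher than the vehicle sedentary mean by 0.48 in vehicle trained library 1, 0.43 in library 2, 0.50 in knockout trained sample 2 and 0.31 in the summed libraries 3 and 5, but by 0.03 in the summed libraries 1 and 4. With length included as an offset for each sample, an alternative chosen after seeing the data, the members' median for training in knockout muscle was 0.15 and for training in vehicle muscle 0.017. The median for knockout in trained muscle was 0.14, with 2 members called, Mrps34 and Mrpl18, beside 3.08% of all tested genes in that fit.

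**Figure D5:**
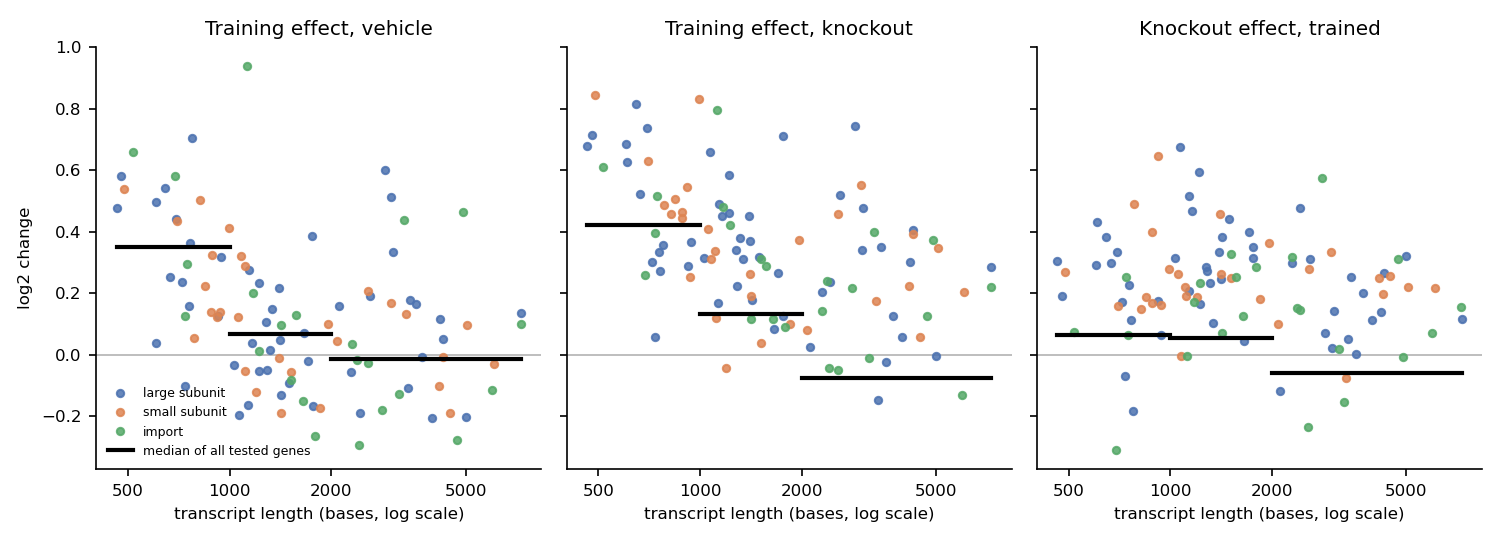
Log2 change of each of the 101 members against transcript length in bases (log scale) for training in vehicle muscle, training in knockout muscle and knockout in trained muscle; colours mark the ribosomal subunits and the import genes, and black lines are medians of all tested genes in 3 length classes. Short genes are higher after training in both panels on the left, among members and among all genes.

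Among other genes of mitochondrial protein synthesis and import, taken from lists by function, 4 passed between trained groups. Of 25 other import genes, 3 rose in knockout trained muscle and none fell, beside 1.99% of all tested genes called higher and 1.30% lower, with a median change of 0.17. They were Pmpcb, a subunit of the peptidase that removes presequences (0.62, SE 0.14; edgeR adjusted p = 0.0163), Samm50, the core of the outer membrane sorting complex (0.41, SE 0.10; adjusted p = 0.0311), and Grpel2, a nucleotide exchange factor of the import motor (0.48, SE 0.12; adjusted p = 0.0392). In sedentary muscle, Pmpcb was at 55.1 to 65.05 CPM in vehicle and 67.41 to 80.65 CPM in knockout samples. Grpel2 was at 22.12 to 27.69 and 30.77 to 33.11 CPM there, so neither overlapped, while Samm50 did. Over all tested genes, 5.63% were higher without overlap in knockout sedentary muscle. Of 17 mitochondrial tRNA synthetase genes, Cars2 rose between trained groups (0.64, SE 0.13; adjusted p = 0.00984) and the median was 0.28. None of 14 translation factor genes, 20 ribosome assembly genes, 5 ribosomal proteins with other names and 10 genes of mitochondrial DNA transcription and maintenance passed with edgeR (3, 0, 3 and 1 of them higher and none lower at an unadjusted p under 0.05). Their medians were 0.28, 0.14, 0.33 and 0.036, and all 14 translation factor genes were above 0, beside 46.8% of all tested genes. Nor did any of 10 nuclear regulators of these genes pass, with 2 higher and 4 lower at an unadjusted p under 0.05. Over all tested genes 8.35% were higher and 8.83% lower at that threshold.

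Nuclear complex I genes and cytosolic ribosomal protein genes were set beside the members. For knockout in trained muscle, where the members' median was 0.22 and that of all tested genes -0.026, 40 nuclear complex I genes had a median change of 0.50, with 10 called, all higher (1.99% of all tested genes were called higher), and 87 cytosolic ribosomal protein genes had a median of -0.18, with none called by edgeR and 1 lower at an unadjusted p under 0.05 (8.83% of all tested genes). The members' median lay between those of the families in this comparison and below both for training. For training in vehicle muscle the medians were 0.19 and 0.71, against 0.11 for the members and 0.028 for all tested genes, and for training in knockout muscle 0.65 and 0.55, against 0.32 and -0.017. No test compared these families.

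Of the markers of fibre type and of other cells, 1 passed the threshold between trained groups. Over all tested genes in this comparison, 46.8% were above 0, 1.99% were called higher with edgeR and 1.30% lower. At an unadjusted p under 0.05, 8.35% were higher and 8.83% lower. All 7 slow fibre markers were above 0 between trained groups, 5 of them at an unadjusted p under 0.05 and none past the threshold. Their summed level was 422 to 1356 CPM in vehicle trained and 978 to 1320 CPM in knockout trained muscle, and 923 to 1654 and 626 to 1439 CPM in vehicle and knockout sedentary muscle. All 8 macrophage markers were below 0 between trained groups, 3 of them at an unadjusted p under 0.05 and none past the threshold, with sums of 168 to 440 CPM in vehicle trained, 59.1 to 331 CPM in knockout trained, 60.1 to 242 CPM in vehicle sedentary and 93.7 to 259 CPM in knockout sedentary muscle. All 8 muscle fibre markers were above 0, and 1 of them, the myoglobin gene Mb, rose (0.96, SE 0.25; edgeR adjusted p = 0.0438). Muscle fibre sums were 46240 to 74450 CPM in vehicle trained and 59980 to 81740 CPM in knockout trained muscle. The 4 myosin heavy chain genes summed to 11960 to 27880 CPM in vehicle trained and 17320 to 25080 CPM in knockout trained muscle. The 6 blood markers summed to 521 to 2058 CPM in vehicle trained and 431 to 2902 CPM in knockout trained muscle, with the highest sum in knockout trained sample 2, which also had the highest mean level of the members. For training in knockout muscle all 6 were above 0, 3 of them, all haemoglobin genes, at an unadjusted p under 0.05 and none past the threshold. Over all tested genes in that comparison, 47.4% were above 0 and 7.10% were higher at an unadjusted p under 0.05. Of 7 endothelial markers, 5 were above 0 between trained groups and 2, Emcn (0.53) and Tie1 (0.43), had an unadjusted p under 0.05, with sums of 173 to 228 CPM in vehicle trained and 180 to 286 CPM in knockout trained muscle. None of the adipocyte, Schwann cell, satellite cell or tendon fibroblast markers tested passed with edgeR between trained groups, with 0, 2, 0 and 0 higher and 0, 0, 0 and 1 lower at an unadjusted p under 0.05. No slow fibre, macrophage, muscle fibre, myosin, blood or endothelial marker was at 0 in any sample, and the part of these cells in the results was not tested.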

How the data were processed

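RNA-seq of 20 mouse muscle libraries was analysed from 1 table of deposited values. The authors' values are estimated counts per gene, although the table is named for CPM: column sums differ between libraries. The submitters' processing notes name Partek, STAR 2.7.8a, DESeq2 and the builds mm10 and GRCm39, without saying which was used where. The strandedness and annotation are not given in the sources used here. Values were rounded, libraries counted as 1 sample were summed, and 18 samples entered edgeR 4.0.16 (R 4.3.3; quasi-likelihood test, TMM scaling, 4 group means, two-sided). Testing required 1 CPM in 5 libraries, and p-values were adjusted by Benjamini-Hochberg over all 14361 genes, with a threshold of 0.05. Standard errors were derived from the log2 change and its F statistic, and the script was tested on simulated data. Transcript length, overlaps and shared 50-base stretches came from GENCODE M21, and promoters from RefSeq GRCm38.p6.

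The members and gene lists were chosen with earlier results of these data known. Named genes are those past the threshold, the 3 highest and 3 lowest changes per comparison, all Timm and Tomm genes, paralogues, extremes of level and spread, and called genes of the lists. Alternatives were DESeq2 1.42.0, limma 3.58.1, RLE scaling, robust fitting, other filters, separate libraries, a replicate block, only the compared groups, and each sample left out. Length offsets, alone and without vehicle trained library 2, were added after seeing the data.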

Additional observations from a re-analysis of the deposited data

Results flagged for a closer look

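In groups of 5 samples, 8 values stood far from the other 4 by Dixon's criterion, over 138 groups examined (46 measures), where chance alone gives about 6.9. Of these, 3 were in vehicle trained library 2, where Arntl was at 132 CPM (others 6.32 to 6.68), Mrpl41 at 86.2 CPM (others 28.0 to 38.3) and Timm10 at 59.3 CPM (others 19.0 to 28.6). Mrpl16 was at 41.6 CPM in vehicle trained library 1 (others 31.4 to 33.6). Arntl was at 18.9 CPM in knockout sedentary library 1 (others 10.96 to 13.14). In knockout sedentary library 5, Mrpl18 was at 65.7 CPM (others 76.8 to 78.1) and Tomm22 at 47.8 CPM (others 51.5 to 52.8). Timm21 was at 26.2 CPM in vehicle sedentary library 4 (others 28.8 to 29.8).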

How the results depend on the processing

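The precision was limited by 3 knockout trained samples and by vehicle trained library 2. For knockout in trained muscle, the 4 members called stood beside 3.29% of all tested genes called in either direction. They became 12 with DESeq2 (6.32%), 0 with only the compared groups (0.139%) and 2 with length offsets (3.08%). The count was 7 with a filter of 5 CPM in 5 libraries and 14 with 20 libraries as separate samples. It was 10 with length offsets and no vehicle trained library 2. No share of all tested genes is given for the fits with 7, 14 and 10 calls, so those counts are not read as particular to the members. Leaving out 1 sample gave 0 to 19. For training in knockout muscle, the count of 0 became 11 with DESeq2 (1.38% of all tested genes called) and 1 with separate libraries. It was 0 to 29 when 1 sample was left out, with 2.76% of all tested genes called in the fit with 29. The counts for the other 3 comparisons were 0 in every fit run, leaving out samples included. Why these counts moved was not tested, except that fits with fewer or separate samples change the residual degrees of freedom. All 4 calls were kept with DESeq2, RLE, limma, robust fitting, no filter and the stricter filter. They were also kept with 20 separate libraries, with and without a replicate block. Those fits count as replicates the library pairs otherwise counted as 1 sample, so they add no support. The replicate numbers did not pair the samples. Same-numbered libraries had a median correlation of deviations of 0.0279 over 30 pairs, 11 of them above 0.1, and 4 of 20 libraries correlated best with their own number. With a replicate block and 20 separate libraries, 13 members were called for knockout in trained muscle, again with no share of all tested genes given.

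With 1 sample left out, the median change ranged from 0.006 to 0.030 for knockout in sedentary muscle, 0.12 to 0.36 for knockout in trained muscle, 0.06 to 0.16 for training in vehicle muscle, 0.25 to 0.44 for training in knockout muscle and 0.12 to 0.34 for the interaction. The median for training in knockout muscle was 0.15 with length offsets and 0.14 with offsets and no library 2. Arntl in trained muscle changed sign from -0.21 to 0.62 without vehicle trained library 2 (range -0.50 to 0.62 with 1 sample left out, and 0.72 to 0.90 in sedentary muscle).

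Single genes turned in 11 cases; the cause was not tested. Without library 2, Mrpl41 was at 0.13 for the interaction and 0.31 for knockout in trained muscle, where leaving out 1 sample gave -0.33 to 0.31; it was at 0.12 with length offsets as well and at 0.025 without knockout trained libraries 1 and 4. Timm10 was at 0.12 and 0.14 without library 2, with lowest values of -0.45 and -0.44 when another sample was left out. Mrpl41 went down to -0.50 for the interaction. Timm9 for training in knockout muscle was at 0.015, 0.0018 and 0.0053 without knockout sedentary library 1, knockout sedentary library 4 and knockout trained library 2, and went down to -0.11 with another left out. Tomm70a was at 0.022 and 0.021 with length offsets, alone and without library 2.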
